A study of Homo sapiens with 24 samples.

Results

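Mitosis genes are described here in PANC-1 cells, a human pancreatic ductal adenocarcinoma line, after 6 h with DMSO, CID661578 at 40 µM or cercosporamide at 5 µM. The set is a named list of 44 genes with roles in entry into and passage through mitosis, and all 44 had at least 1 read in each of the 24 libraries. They were 44 of the 12058 genes that met this condition, out of 54583 genes in the count table. Each treatment was applied to 4 replicate plates, and each plate gave a library of total cytosolic RNA and a library of polysome-associated RNA, taken from gradient fractions of mRNA carrying more than 3 ribosomes. All plates were of the 1 cell line in complete medium, and the controls carried the DMSO vehicle. The study calls the 4 replicates biological, but nothing in the sources used here says that they came from separate cell stocks. The p-values therefore measure the spread between these plates. Both compounds were used in the study as ligands of the kinase MNK2, which phosphorylates the cap-binding protein eIF4E. Their doses differed, so a difference between them is a difference between these 2 treatments. The series addressed which mRNAs change in polysome association after each compound.

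Mitosis is driven by CDK1 bound to cyclin A or cyclin B, which CDC25 phosphatases switch on. PLK1 and the Aurora kinases build the spindle and separate the centrosomes. Kinetochores attach chromosomes to microtubules, the spindle checkpoint holds the cell until all are attached, and the anaphase-promoting complex with CDC20 then destroys cyclin B and securin. Many of these genes carry a promoter element, the cell cycle genes homology region (CHR), often beside CCAAT boxes. The DREAM complex represses them there in quiescence and early G1, and the MuvB core with B-MYB and FOXM1 activates them in late S, G2 and M phase.

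That shared promoter element could be seen in the reference sequence. RefSeq promoters on GRCh38.p14, running from 250 bases before to 50 bases after the start of each gene, were given for 39 of the 44 members, and AURKA, BUB3, TTK, UBE2C and TPX2 had no entry. The CHR letters TTTGAA, searched on both strands, were found in 29 of the 39 (74.4%), against 9.35% of the 8546 promoters of genes tested and 15.4% of all 27305 promoters. CCAAT was found in 71.8% of the members' promoters, against 37.7% of the promoters of genes tested. The TATA letters TATAAA were found in 5.13% of the members' promoters, against 5.23%. A match is a run of letters and was not tested as a binding site. The 30-base windows below carry TTTGAA in capitals and are written 5′ to 3′ in the direction of the gene. The first 4 belong to genes with a called rise in polysome association relative to total RNA under cercosporamide (below), and the last 3 to genes without one.
ANLN, chr7:36389830-36389859, plus strand: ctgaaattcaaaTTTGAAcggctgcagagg
HMMR, chr5:163460598-163460627, plus strand: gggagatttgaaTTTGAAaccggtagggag
BUB1B, chr15:40161034-40161063, plus strand: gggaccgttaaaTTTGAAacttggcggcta
NCAPG, chr4:17810932-17810961, plus strand: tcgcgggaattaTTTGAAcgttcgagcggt
PLK1, chr16:23678848-23678877, plus strand: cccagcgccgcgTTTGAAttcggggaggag
KIF4A, chrX:70290058-70290087, plus strand: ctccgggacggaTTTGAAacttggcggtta
MKI67, chr10:128126435-128126464, minus strand: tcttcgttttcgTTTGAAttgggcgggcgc
Both kinds of gene held the element. It was found in 21 of the 26 promoters of members called higher and in 8 of the 13 promoters of members not called.

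Read totals were 9268041 to 12184749 in 23 libraries and 1592459 in the polysome library of cercosporamide replicate 4, which therefore has more counting error than the rest. Single members had 7 to 9839 reads in a library. Of 6 duct epithelium markers, the keratins KRT8, KRT18 and KRT19 had at least 6149 reads in every library, whereas KRT7, SOX9 and EPCAM were low, at 5 to 558 reads. The mesenchymal marker VIM was also high (770 to 2177 CPM), and FN1 had 0 to 6 reads. Among blood markers, CD68 was detected in every library (307 to 858 CPM), and PTPRC and CD3E were at 0 in all 24. The endothelial gene CDH5 and the endocrine genes INS, SST and CHGA were at 0 in all 24, and the other endothelial, endocrine and acinar markers had at most 14 reads. No external RNA was added, so a change is relative to the other genes, and a smaller number of cells in mitosis cannot be told apart from less RNA per cell. Levels are given below as TMM-scaled CPM, the read count relative to library depth. A TE change is the change of the polysome level relative to the total level of the same plate, against DMSO, on the log2 scale and with its standard error (SE). A TE change, or a difference between the fractions in DMSO, was called when its Benjamini-Hochberg adjusted p across all 12058 genes was below 0.15 and it exceeded 1.2-fold. A change within 1 fraction was called at the same adjusted p with no fold minimum. Adjusted p-values are from edgeR's quasi-likelihood test throughout.

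In DMSO the transcripts of UBE2C, CDC20 and CCNB1 were the most abundant members per kilobase of transcript. Their total levels were 457 ± 106, 414 ± 115 and 314 ± 51.6 CPM per kb (mean ± SD, n = 4). KIF14, a kinesin of the midbody, was the least abundant at 1.21 ± 0.526, with CENPE at 1.80 ± 0.442 CPM per kb. UBE2C and CDC20 differed by less than the SD of either. CDK1 stood at 167 ± 81.2 CPM per kb, close to AURKB at 128 ± 24.7.

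In DMSO-treated cells the members' polysome levels lay on both sides of their total levels. The polysome level was called higher than the total level in 12 of the 44 members and called lower in 12, against 26.4% and 29.6% of all genes (56% in either direction), and the median difference was 0.00 on the log2 scale. MKI67, the large chromosome surfactant Ki-67, was 1.11 ± 0.18 (SE) higher in polysomes (adjusted p = 2.4e-05, 4 of 4 replicates). INCENP, the scaffold of the chromosomal passenger complex, was 1.16 ± 0.23 higher, and the chromokinesin KIF4A was 0.88 ± 0.17 higher. TOP2A, the topoisomerase that untangles sister chromatids, was 0.80 ± 0.17 higher. KIF18A, which limits the growth of kinetochore microtubules, had a difference of -1.201 ± 0.225 (adjusted p = 0.000139), and the checkpoint kinase TTK one of -1.13 ± 0.20. Mitotic kinases and chromosome structure genes included 5 called higher and none lower, while spindle assembly and cytokinesis genes included 3 called lower and none higher. The zero point depends on the scaling between fractions. With scaling factors computed within each fraction the median of all genes moved from -0.01 to 0.26, and the members' median was 0.28. In that fit 19 members were called higher and 4 lower, against 39.2% and 20.4% of all genes.

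Cercosporamide raised polysome association relative to total RNA for most of the mitosis genes. The TE change was called higher in 28 of 44 members and lower in none, whereas 15.8% of all genes tested were called higher and 12.6% lower. The members' median TE change was 0.83, against 0.00 for all genes, and the 44 values ran from -0.83 to 2.18. In each replicate on its own the members' median was between 0.73 and 1.02. In 24 members the 4 ratios under cercosporamide lay wholly apart from the 4 DMSO ratios. The share of all genes with such a separation is not given here, so this count has no background beside it.

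**Figure D1:**
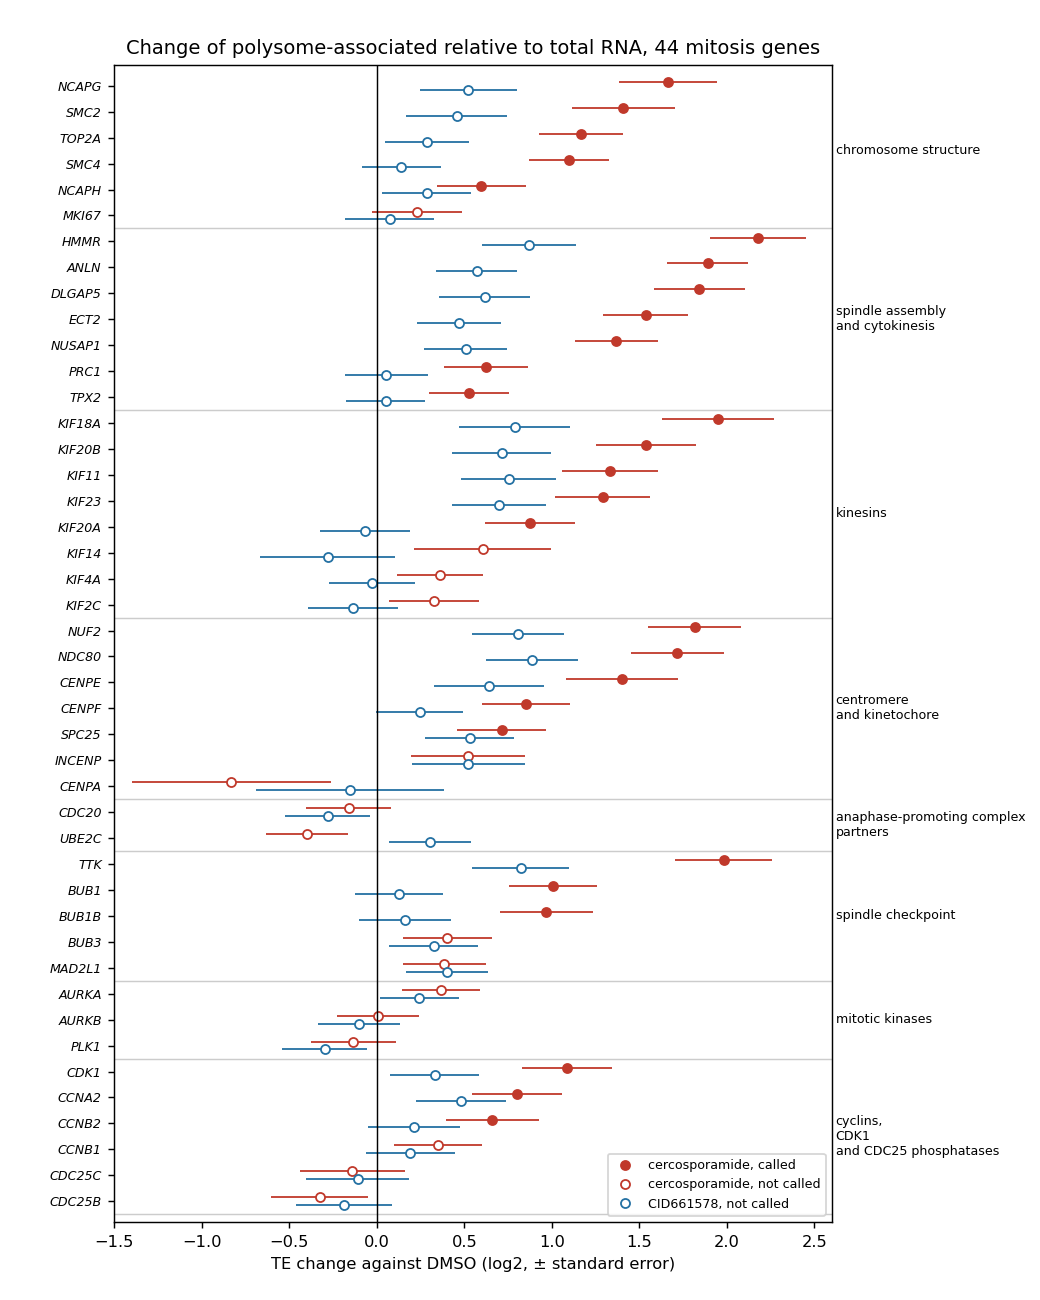
TE change against DMSO (log2, x axis, bars are standard errors) of the 44 mitosis genes (y axis), grouped by role, for cercosporamide (red) and CID661578 (blue); filled points passed the call. All 7 spindle assembly and cytokinesis genes are filled for cercosporamide, no point is filled for CID661578, and HMMR is the highest at 2.18.

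The 7 spindle assembly and cytokinesis genes were all called higher, with a median TE change of 1.53. ANLN encodes anillin, which scaffolds the contractile ring. Its polysome to total ratio was 0.618, 0.603, 0.550 and 0.773 in DMSO replicates 1 to 4, 0.843, 0.776, 1.25 and 0.949 with CID661578, and 2.21, 2.29, 2.02 and 2.91 with cercosporamide. The cercosporamide ratios lay above all the others, and the TE change was 1.89 ± 0.23 (adjusted p = 3.52e-05). HMMR encodes a spindle protein and hyaluronan receptor. Its ratio was 1.00, 0.330, 0.510 and 0.894 in DMSO and 2.64, 2.51, 3.48 and 2.81 with cercosporamide, with no overlap and a TE change of 2.18 ± 0.27 (adjusted p = 4.03e-05). DLGAP5, which stabilises kinetochore fibres, had ratios of 1.43, 0.483, 0.702 and 1.08 in DMSO and 3.49, 2.83, 2.18 and 4.03 with cercosporamide. These groups were also apart, by a TE change of 1.84 ± 0.26. ECT2, the activator of RhoA at the cleavage site, changed by 1.53 ± 0.24, and NUSAP1, which bundles microtubules, by 1.37 ± 0.24. PRC1 and TPX2 had the smallest values of the group, 0.62 ± 0.24 and 0.52 ± 0.23, and kept their calls in 9 and 7 of 16 alternatives, whereas the other 5 genes kept theirs in all 16.

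Among the 5 spindle checkpoint genes, 3 were called higher. For TTK, the kinase that starts checkpoint signalling, the ratio was 0.760, 0.265, 0.395 and 0.531 in DMSO and 1.77, 1.48, 2.80 and 1.42 with cercosporamide. The groups did not overlap, and the TE change was 1.98 ± 0.28 (adjusted p = 0.000116). BUB1 and BUB1B changed by 1.00 ± 0.25 and 0.97 ± 0.26. BUB3 and MAD2L1, which complete the checkpoint complex, had values of 0.40 ± 0.25 and 0.38 ± 0.24 and were not called.

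Of the 7 centromere and kinetochore genes, 5 were called higher. NUF2 and NDC80 form a microtubule-binding pair of the outer kinetochore. NUF2 ratios were 1.197, 0.433, 0.571 and 0.926 in DMSO and 2.75, 2.13, 2.92 and 2.42 with cercosporamide. NDC80 ratios were 1.00, 0.429, 0.873 and 0.952 in DMSO and 3.65, 2.02, 1.84 and 3.08 with cercosporamide. Neither gene had overlapping groups, and their TE changes were close at 1.81 ± 0.27 and 1.72 ± 0.27. SPC25, a further subunit of the same complex, rose by 0.71 ± 0.25 (adjusted p = 0.057), a call kept in 9 of 16 alternatives. CENPE, a kinesin at the kinetochore, rose by 1.40 ± 0.32. CENPA, the histone that marks centromeres, had the lowest value of all members, -0.83 ± 0.57 (adjusted p = 0.343), and rested on few reads. Its polysome ratio with cercosporamide was 0.238, 0.307 and 0.315 in replicates 1 to 3 and 1.46 in replicate 4, where the polysome library held 7 CENPA reads. Without that plate CENPA was called lower, at -1.44 (adjusted p = 0.0747).

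Kinesins and chromosome structure genes mostly rose. Among the 8 kinesins 5 were called higher, from KIF18A at 1.95 ± 0.32 to KIF20A at 0.88 ± 0.26, and KIF14, KIF4A and KIF2C were not called. KIF11, the motor that pushes spindle poles apart, rose by 1.33 ± 0.27. Of the 6 chromosome structure genes, the condensin subunits NCAPG, SMC2, SMC4 and NCAPH rose by 1.67 ± 0.28, 1.41 ± 0.29, 1.10 ± 0.23 and 0.60 ± 0.26. The NCAPH call was kept in 4 of 16 alternatives and that of SMC4 in 15. TOP2A rose by 1.17 ± 0.24, and MKI67 had a value of 0.23 ± 0.25.

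Of the 6 cyclin, CDK1 and CDC25 genes, 3 were called higher, and the mitotic kinases and the partners of the anaphase-promoting complex held no called gene. CDK1 rose by 1.09 ± 0.26 (adjusted p = 0.00592), CCNA2 by 0.80 ± 0.26 and CCNB2 by 0.66 ± 0.27. CCNB1 had a value of 0.35 ± 0.25, and its distance from CCNB2 is small beside these errors. The CCNB2 call was kept in 9 of 16 alternatives. PLK1 had a value of -0.14 (95% interval -0.61 to 0.34), AURKB one of 0.01 (-0.45 to 0.46) and AURKA one of 0.37 (-0.07 to 0.81). CDC20 stood at -0.16 (-0.64 to 0.32). UBE2C, the ubiquitin-conjugating enzyme of the complex, stood at -0.40 (-0.86 to 0.06). These intervals leave out changes as large as those of CDK1 for each of the 5 genes. UBE2C was called lower with DESeq2, at -0.47, and without replicate 4, at -0.60 (adjusted p = 0.14).

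**Figure D2:**
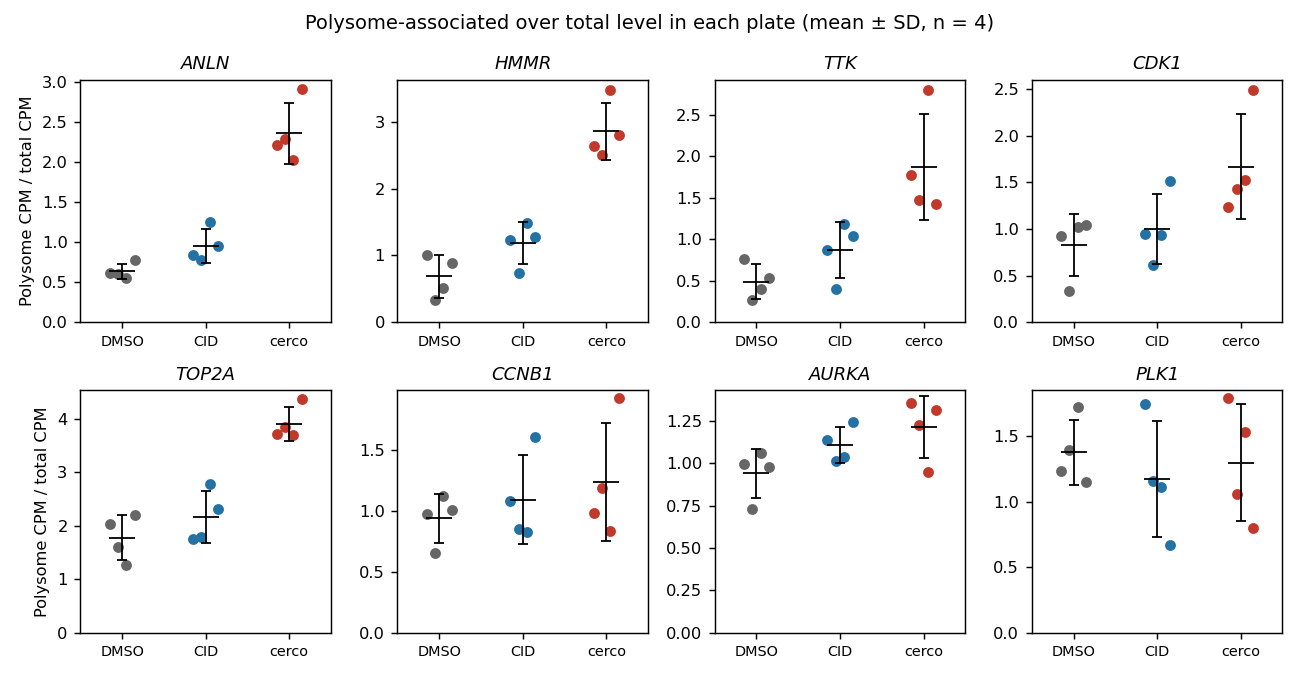
Polysome CPM over total CPM (y axis, linear, from 0) in each of 4 plates of DMSO, CID661578 (CID) and cercosporamide (cerco) for 8 mitosis genes, with mean and SD. The cercosporamide points of ANLN, HMMR, TTK, CDK1 and TOP2A lie above all their DMSO points, and those of CCNB1, AURKA and PLK1 overlap them.

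The called genes differed in base composition from those not called. The members' canonical GENCODE transcripts had a median GC content of 41.8%, against 47.5% for the 11658 tested genes with a match, and a median coding length of 2232 against 1380 bases. Across the 44 members the TE change under cercosporamide had a Pearson correlation of -0.75 with transcript GC and of -0.81 with the GC of the coding sequence. Across all matched genes the value for transcript GC was -0.51. Genes of 1 set of libraries are not independent replicates, so these are descriptions without a p. Below 40% GC, 17 of 19 members were called higher, against 45.7% of all genes of that range. Between 40 and 45% it was 6 of 9 members against 27.0%, and above 45% it was 5 of 16 members against 3.72%. The lowest GC belonged to KIF20B (34.3%), CENPE (35.1%) and CDK1 (35.4%). The highest belonged to CDC25B (59.1%), INCENP (58.8%), PLK1 (57.1%) and CDC20 (56.9%), of which none was called.

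The fits were repeated with scaling that took out the trend on GC across all genes. In that refit 21 members were called higher for TE, against 8.96% of all genes, and the members' median was 0.51. ANLN, HMMR and TTK kept values of 1.28 ± 0.21, 1.40 ± 0.23 and 1.21 ± 0.23. TOP2A had 0.50 ± 0.21 and stayed called (adjusted p = 0.12). The 8 genes no longer called were CDK1 (0.28 ± 0.23), CCNA2 (0.37 ± 0.23), CCNB2 (0.51 ± 0.23), SPC25 (0.11 ± 0.23), CENPE (0.57 ± 0.28), CENPF (0.32 ± 0.23), SMC4 (0.33 ± 0.21) and NCAPH (0.52 ± 0.24). INCENP became called, at 0.84 ± 0.31. Of the 28 genes called first, 20 kept their call. The part of base composition in the changes was not tested further.

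**Figure D3:**
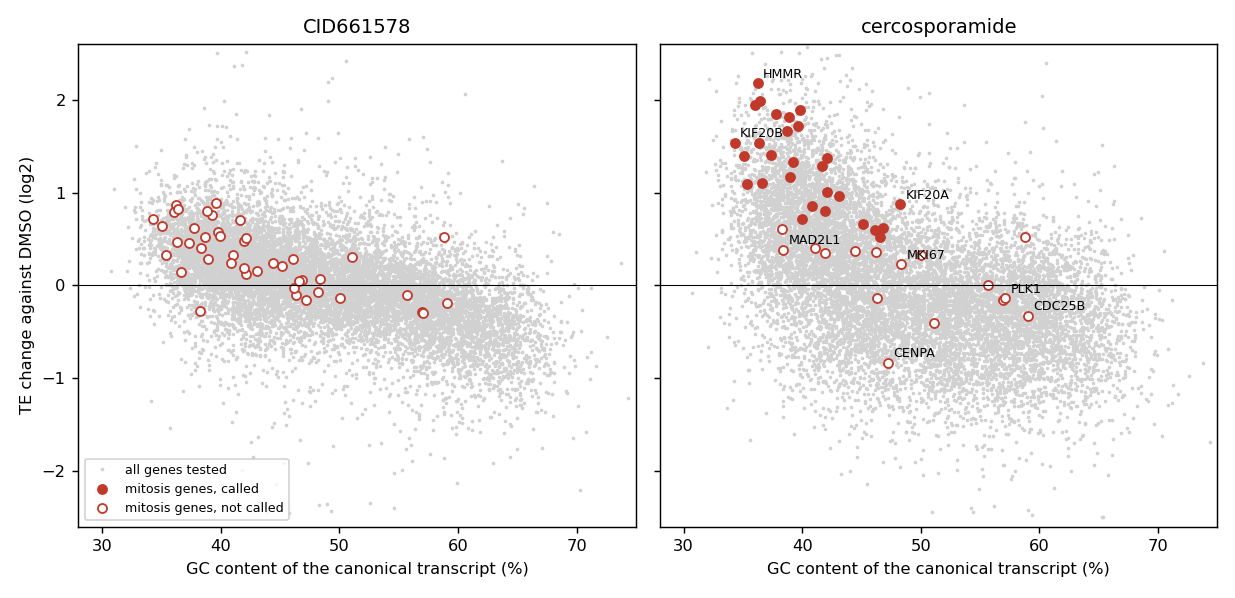
TE change against DMSO (log2, y axis) by GC content of the canonical transcript (x axis, %) for all genes tested (grey) and the mitosis genes (red, filled where called), CID661578 left and cercosporamide right. Members below 40% GC lie mostly above 1 for cercosporamide, and PLK1 and CDC25B, above 55% GC, lie near or below 0; 1 gene (left) and 3 genes (right) fall outside the axes.

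CID661578 gave smaller TE changes in the same measure, and none of the 44 members was called. Across all genes 0.00829% were called higher and 0.199% lower, and DESeq2 called no member either. The study used another method, anota2seq, with the same cut-offs of adjusted p and fold. It reported translationally regulated mRNAs shared by both compounds, so the few calls here differ from its result. The 2 methods were not compared gene by gene. At an unadjusted p below 0.05, 12 members were higher and none lower, and the share of all genes at that p is not given here. The members' median was 0.30 with 34 positive values, against a median of 0.03 for all genes. The smallest p belonged to NDC80, whose ratio was 1.37, 0.803, 1.92 and 2.00 with CID661578. These overlapped the DMSO ratios given above, and the TE change was 0.89 ± 0.26 (adjusted p = 0.435). HMMR ratios were 1.22, 0.743, 1.49 and 1.27, with a value of 0.87 ± 0.27 (adjusted p = 0.472). NUF2 ratios were 1.35, 0.815, 1.35 and 1.72, with a value of 0.81 ± 0.26 (adjusted p = 0.487). In all 3 genes the value was higher than DMSO in 4 of 4 replicates. The lowest values were those of PLK1 (-0.30 ± 0.24) and CDC20 (-0.28 ± 0.24). Without replicate 1, TTK, NUF2, NDC80, KIF11 and HMMR were called higher, at 1.01 to 1.07 (adjusted p = 0.115 to 0.122). That fit called 0.813% of all genes higher and 2.06% lower. With the GC trend removed the members' median was 0.08.

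The TE changes of both compounds were compared with each other in the same fit. The change was called lower with CID661578 in 19 members and called higher in 1, against 7.57% and 7.93% of all genes, and the median difference of the members was -0.59. ANLN differed by -1.32 ± 0.23 (adjusted p = 0.00541), HMMR by -1.31 ± 0.27 and DLGAP5 by -1.23 ± 0.26. DLGAP5 ratios with CID661578 were 1.32, 0.985, 1.38 and 1.604, all below the cercosporamide ratios. CDK1 differed by -0.76 ± 0.26 and TOP2A by -0.88 ± 0.24. UBE2C was the gene with a higher value for CID661578, by 0.70 ± 0.23 (adjusted p = 0.0741), and its ratios were 1.13, 0.904, 0.849 and 0.907 with CID661578 against 0.576, 0.644, 0.476 and 0.636 with cercosporamide. For CCNB1 the difference was -0.16 (95% interval -0.65 to 0.34), and for PLK1 it was -0.16 (-0.64 to 0.31). The count of 20 was 10 without replicate 1, 6 without replicate 2 and 0 in a fit with neither replicate nor plate terms. Calls over all genes fell too. They were 2.29% higher and 2.58% lower without replicate 1, and 1.83% and 1.43% without replicate 2. With neither term they were 0.116% and 0.0332%.

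In polysome-associated RNA, cercosporamide raised 23 members and lowered 2, against 18.3% and 13.8% of all genes. The members' median change was 0.48. TTK had 55.2, 26.8, 19.2 and 49.2 CPM in DMSO polysomes and 153, 102, 138 and 160 CPM with cercosporamide, a change of 1.97 ± 0.20 (adjusted p = 4.01e-06). ECT2 had 73.6, 56.2, 61.9 and 67.4 CPM in DMSO and 184, 141, 224 and 167 CPM with cercosporamide, a change of 1.45 ± 0.17. ANLN had 144, 133, 146 and 228 CPM in DMSO and 472, 322, 406 and 572 CPM with cercosporamide, a change of 1.44 ± 0.17. None of these 3 genes had overlapping groups. The 2 members lowered were MKI67, by -0.65 ± 0.20 (adjusted p = 0.026), and CDC25C, by -0.50 ± 0.22 (adjusted p = 0.117). With DESeq2's size factors the split was 21 higher and 3 lower for the members, while for all genes it went from 2212 higher and 1669 lower to 1891 and 2151. With the GC trend removed, 17 members were higher and 2 lower, against 12.4% and 13.5% of all genes, and the median was 0.18.

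With CID661578 the polysome level rose in 10 members and fell in 5, against 6.16% and 3.96% of all genes (10.1% in either direction). The members that rose were TTK, ECT2, NUF2, HMMR, NDC80, CENPE, SMC2, NCAPG, SMC4 and KIF20B. Those that fell were MKI67, CDC25B, PLK1, KIF20A and AURKA. TTK had 86.7, 43.1, 57.5 and 77.5 CPM, overlapping DMSO, with a change of 0.86 ± 0.20 (adjusted p = 0.0192). ECT2 had 104, 80.6, 120 and 96.4 CPM, all above DMSO, with a change of 0.62 ± 0.16 (adjusted p = 0.0445). MKI67 had 107.8, 95.1, 101 and 178 CPM in DMSO polysomes, 76.4, 53.2, 68.8 and 99.5 CPM with CID661578 and 96.9, 76.6, 44.8 and 85.4 CPM with cercosporamide. Its change with CID661578 was -0.68 ± 0.19 (adjusted p = 0.0586). The count of 15 depended on the fit. It was 0 without the replicate term and 3 (all lower: AURKA, KIF20A and MKI67) with the GC trend removed. It was 7, 10, 1 and 5 without replicates 1, 2, 3 and 4. Fewer of all genes were called in these fits too. The main fit called 743 higher and 478 lower, against 33 and 36 without the replicate term. With the GC trend removed the calls were 193 and 132. With 1 replicate left out they were 251 to 603 higher and 144 to 453 lower.

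In total RNA no member was called for either compound. Across all genes 0.315% were called higher and 0.133% lower with CID661578 (0.448% in either direction), and 0.29% and 0.0912% with cercosporamide. With both compounds 37 of the 44 values were negative, with medians of -0.24 and -0.32, and both comparisons used the same DMSO plates. At an unadjusted p below 0.05, 10 members were lower with CID661578, and 11 were lower and 1 higher with cercosporamide. The shares of all genes at that p are not given here. DESeq2 called 2 members with CID661578 (AURKA and CCNA2, both lower) and 5 with cercosporamide (KIF20A, MKI67, CENPF and CCNB2 lower, UBE2C higher). Of all genes, DESeq2 called 0.738% higher and 0.556% lower with CID661578, and 2.21% and 0.945% with cercosporamide. With CID661578 the members' median change was 0.25 in replicate 1 and -0.30, -0.49 and -0.45 in the others.

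**Figure D4:**
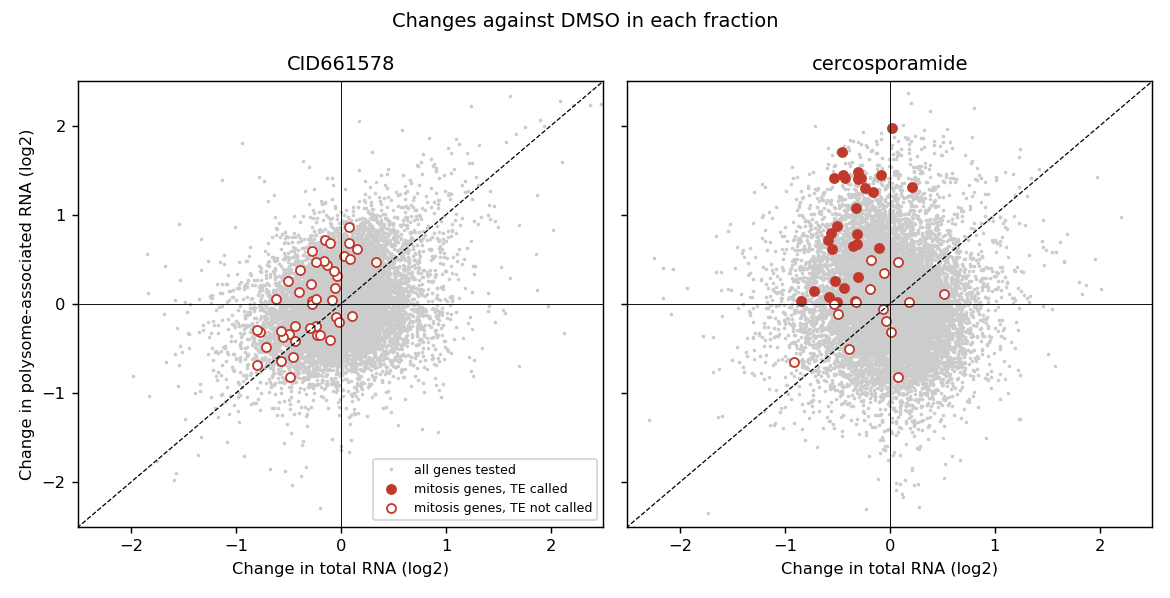
Change in polysome-associated RNA (log2, y axis) against change in total RNA (log2, x axis) for all genes tested (grey) and the 44 mitosis genes (red, filled where TE was called), with CID661578 left and cercosporamide right; the dashed line marks equal change. With cercosporamide the filled points lie above the dashed line, mostly left of 0 and up to 1.97 in polysomes; 28 and 8 genes fall outside the axes.

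AURKA, which matures the centrosomes, came nearest to a call with CID661578. It had 182, 145, 131 and 218 CPM in DMSO total RNA, 134, 75.9, 89.7 and 113 CPM with CID661578, and 151, 106, 108 and 174 CPM with cercosporamide. The change with CID661578 was -0.72 ± 0.18 (adjusted p = 0.161), lower in 4 of 4 replicates but with overlapping groups. CCNA2 had 41.3, 50.3, 49.0 and 52.0 CPM in DMSO and 25.1, 29.3, 33.9 and 24.4 CPM with CID661578. Its groups did not overlap, and the change was -0.77 ± 0.23 (adjusted p = 0.334). With cercosporamide the smallest p belonged to KIF20A, a kinesin of the central spindle. KIF20A had 50.3, 25.9, 30.1 and 70.1 CPM in DMSO and 34.5, 21.9, 11.6 and 31.2 CPM with cercosporamide, a change of -0.85 ± 0.23 (adjusted p = 0.197). CENPF, a corona protein of the kinetochore, had 61.5, 59.8, 90.3 and 61.6 CPM in DMSO and 44.4, 45.4, 45.9 and 30.4 CPM with cercosporamide, a change of -0.72 ± 0.22 without overlap (adjusted p = 0.243). MKI67 had 46.9, 36.8, 72.3 and 67.6 CPM in DMSO, 47.0, 22.7, 25.2 and 38.3 CPM with CID661578, and 40.7, 34.5, 18.9 and 25.7 CPM with cercosporamide. Its change with cercosporamide was -0.91 ± 0.29 (adjusted p = 0.246).

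The best known regulators showed how the fractions combined. CCNB1 total RNA was 763, 631, 507 and 647 CPM in DMSO, 551, 367, 440 and 385 CPM with CID661578, and 674, 435, 528 and 602 CPM with cercosporamide. CCNB1 polysome RNA was 740, 414, 568 and 650 CPM in DMSO, 594, 313, 362 and 619 CPM with CID661578, and 663, 517, 442 and 1157 CPM with cercosporamide. The groups overlapped in both fractions, although the CID661578 total levels of replicates 2 to 4 lay below every DMSO level.

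CDK1 total RNA was 264, 543, 241 and 212 CPM in DMSO, 304, 351, 366 and 179 CPM with CID661578, and 325, 276, 399 and 359 CPM with cercosporamide. In polysomes CDK1 had 243, 183, 245 and 220 CPM in DMSO, 287, 216, 341 and 271 CPM with CID661578, and 401, 395, 608 and 896 CPM with cercosporamide. The cercosporamide polysome levels lay above all the others, with a change of 1.31 ± 0.20 (adjusted p = 0.000123), while the total levels overlapped. With the GC trend removed its TE change was the 0.28 given above and was not called.

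PLK1 had 143, 120, 113 and 219 CPM in DMSO total RNA, 70.8, 151, 75.7 and 138 CPM with CID661578, and 176, 194, 70.2 and 159 CPM with cercosporamide. PLK1 polysome levels were 177, 167, 195 and 253 CPM in DMSO, 124, 175, 84.1 and 92.2 CPM with CID661578, and 316, 206, 107.5 and 128 CPM with cercosporamide. The polysome change with CID661578 was -0.82 ± 0.25 (adjusted p = 0.075), and the cercosporamide levels spread to both sides of DMSO. AURKA polysome levels were 182, 106, 139 and 212 CPM in DMSO, 152, 76.7, 92.9 and 140 CPM with CID661578, and 205, 130, 103 and 228 CPM with cercosporamide. The change with CID661578 was -0.48 ± 0.17 (adjusted p = 0.122), with overlapping groups.

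TOP2A total RNA was 136, 127, 119 and 149 CPM in DMSO, 182, 86.9, 76.7 and 116 CPM with CID661578, and 114, 73.9, 85.5 and 94.6 CPM with cercosporamide. TOP2A polysome RNA was 275, 204, 151 and 328 CPM in DMSO, 321, 156, 214 and 269 CPM with CID661578, and 425, 284, 317 and 414 CPM with cercosporamide. With cercosporamide the total levels lay below all DMSO levels, and the polysome levels overlapped DMSO but rose by 0.61 ± 0.18 (adjusted p = 0.0196). CDC20 total RNA was 871, 773, 429.5 and 660.2 CPM in DMSO, 497, 651, 573 and 726 CPM with CID661578, and 952, 839, 492 and 811 CPM with cercosporamide. CDC20 polysome RNA was 842, 659, 573 and 741 CPM in DMSO, 555, 606, 415 and 545 CPM with CID661578, and 805, 763, 504 and 812 CPM with cercosporamide. Its groups overlapped in both fractions.

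The 28 members with a called TE rise under cercosporamide fell into 2 patterns. In 22 the polysome change was larger in size than the total change, and the polysome level was called higher in all of these except PRC1. In the other 6 (CCNA2, CCNB2, CENPF, KIF20A, TPX2 and NCAPH) neither fraction was called, the total changes lay between -0.85 and -0.44, and the polysome changes lay between 0.02 and 0.25.

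Other mitosis genes, listed by textbook role, were counted in the same way. Of 101 that were tested, 32 (31.7%) were called higher for TE with cercosporamide and 11 (10.9%) lower, with a median of 0.24, beside 15.8% and 12.6% of all genes. Cohesin and condensin genes held 8 higher and 1 lower of 15, with a median of 0.65. The shugoshin SGO2, which protects centromeric cohesion, rose by 1.67 ± 0.28 (adjusted p = 0.000456), and the cohesin subunit SMC3 rose by 1.49 ± 0.28. Genes of the anaphase-promoting complex and its regulators held 4 higher and 4 lower of 18 (22.2% each), with a median of -0.32. UBE2S, which extends ubiquitin chains for the complex, fell by 1.62 on the log2 scale (SE 0.33, adjusted p = 0.00181). Of 44 DNA replication genes, 13 (29.5%) were called higher and 3 (6.82%) lower, with a median of 0.29. ORC3, a subunit of the origin recognition complex, rose by 1.66 ± 0.24 (adjusted p = 0.000143). With CID661578 no gene of these lists was called for TE, and the medians were 0.18 for the other mitosis genes and 0.00 for the DNA replication genes. In total RNA none of them was called with either compound.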

How the data were processed

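RNA was measured in 24 Smart-seq2 libraries, 12 of total cytosolic and 12 of polysome-associated RNA. The deposited values are raw read counts per gene. Per the study's methods the authors removed adapter and ribosomal RNA reads, aligned to hg38 with HISAT2 and counted with featureCounts at default settings on RefSeq genes, which does not use strand, so overlapping and antisense genes cannot be told apart. PCR duplicates were not marked by molecular identifiers. All 24 columns were matched to samples by label, and 0 were left unmatched.

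Counts were tested with edgeR 4.0.16 (R 4.3.3) after TMM scaling over the 24 libraries, on the 12058 genes with no zero. The TE fit had a term for each of the 12 plates, a polysome term for each replicate number and the interaction of fraction with compound. Fits of 1 fraction, of 12 libraries, had replicate and treatment terms. The replicate term follows the study, which used replicate as a batch, although its own test of TE was anota2seq and not edgeR. Standard errors are the log2 change over the square root of F. The TE fit was also run on counts simulated without plate or replicate effects, which cannot check the plate and replicate terms. No 2 libraries agreed within sampling noise (lowest chi-square per degree of freedom 14.9). Transcript features came from GENCODE v44 and were joined by symbol.

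The members and gene lists were chosen with earlier results of these data known. Values in every library are given for CCNB1, CDK1, PLK1, AURKA, TOP2A and CDC20 and for the 3 members of smallest p in each comparison with a compound, called ones first. Other members are named for a small p, an extreme change or a place in a role. Every-library values of UBE2C and CENPA, and the short lists of genes behind a count, were chosen after their values were seen. DESeq2 1.42.0 and the settings given further on were alternatives. A GC or length trend was removed by a refit with scaling that took out that trend across all genes.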

Additional observations from a re-analysis of the deposited data

Results flagged for a closer look

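In 92 groups of 4 values examined, the lowest or highest value stood apart from the other 3 in 6, where chance gives about 1 in 20 groups. In DMSO total RNA, CDK1 was high in replicate 2 (543 CPM) and CENPF in replicate 3 (90.3 CPM). In cercosporamide total RNA, CENPF was low in replicate 4 (30.4 CPM). In DMSO polysome RNA, ANLN (228 CPM) and MKI67 (178 CPM) were high in replicate 4. In cercosporamide polysome RNA, CDC20 was low in replicate 3 (504 CPM). The other 3 values of each group lay closer together, and the mean level of the 44 genes and their median changes held no such value.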

How the results depend on the processing

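The TE count for cercosporamide was between 21 and 29 of 44 in every alternative run except the fit with neither replicate nor plate terms, which called 18 (leaving out 1 replicate gave 22 to 28). Of all genes, the fit with neither term called 5.15% higher and 2.79% lower. The fit without replicate 2 called 8.66% and 6.37%, and the main fit 15.8% and 12.6%. The fit with neither term also called 11 members for polysome against total RNA in DMSO, against 18.9% higher and 23.6% lower of all genes. It called 0 members for the difference between compounds. The difference gave 13 calls at an adjusted p of 0.05 and 6 to 22 when 1 replicate was left out. Of all genes, 3.41% were higher and 2.70% lower at that adjusted p. With 1 replicate left out, 1.83% to 7.14% were higher and 1.43% to 7.12% lower. TE calls for CID661578 ranged from 0 to 5 over the replicates left out. Polysome calls for CID661578 were 2 at an adjusted p of 0.05 and 3 with the GC trend removed. They were 1 to 10 with 1 replicate left out. Of all genes, 256 were higher and 100 lower at that adjusted p, and 193 and 132 with the GC trend removed. Total RNA calls for CID661578 were 1 with scaling within each fraction, 1 with edgeR's filterByExpr, 1 with no filter, 2 with DESeq2, 3 with the GC trend removed and 0 to 1 with 1 replicate left out. For cercosporamide they were 5 with DESeq2, 2 with no filter, 4 with the GC trend removed and 0 to 2 with 1 replicate left out. With the GC trend removed, 1.30% of all genes were higher and 0.705% lower in total RNA with CID661578. With cercosporamide these shares were 4.79% and 1.53%.

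The members' median polysome change with cercosporamide was 0.40 with filterByExpr, 0.36 with no filter, 0.18 with the GC trend removed, 0.37 with the length trend removed, 0.40 without the shallow cercosporamide replicate 4, and 0.40 to 0.61 with 1 replicate left out. With the GC trend removed the polysome median for CID661578 was -0.14 and the TE medians were 0.51 for cercosporamide and 0.082 for CID661578. Scaling within each fraction moved the DMSO polysome against total median to 0.28. The cause of these shifts was not tested.

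Without the replicate block, 28 members were called for TE with cercosporamide, 18 of the 25 kept their polysome call with cercosporamide, and 0 of the 15 kept it with CID661578. Of all genes, 14.4% were then higher and 10.9% lower for TE with cercosporamide. In polysome RNA the shares were 10.3% and 5.61% with cercosporamide and 0.274% and 0.299% with CID661578. Same-numbered plates of each compound and DMSO deviated together, with r above 0.1, in 13 of 16 pairs (r = -0.016 to 0.551), so the numbers were not shown to pair the plates in every case. Single genes were followed for the 48 calls of TE with cercosporamide and of the difference between compounds. Of their 748 alternative values, 619 kept the call, 129 lost it and 0 changed sign. Members not called in the main fit, and the other comparisons, were not part of this count, so it holds no gained calls.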
